A study of Homo sapiens with 6 samples.

Results

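The genes described here are 9 genes of the insulin and insulin-like growth factor (IGF) signalling pathway: the receptors INSR and IGF1R, the adaptors IRS1 and IRS2, the phosphoinositide 3-kinase (PI3K) subunits PIK3CA, PIK3CB and PIK3R1, the PI3K inhibitor PIK3IP1, and RICTOR, a subunit of mTOR complex 2. They were chosen by name, and all 9 were found among the 58735 genes of the count table. All 9 were also among the 14338 genes with enough reads to be tested. The cells were BT549, an established human basal-like breast cancer line, in 2 groups of 3 libraries named A, B and C. One group received the vehicle DMSO and the other received AS1842856, a small molecule that binds the transcription factor FOXO1. Both groups were plated at 100000 cells a dish and treated for 48 h. The sample labels give 200 nM for AS1842856, which differs from the dose in the methods of the study, and the difference was not resolved here. Everything below comes from 1 cell line and 1 time.

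Insulin and the IGFs bind receptor tyrosine kinases at the cell surface, which phosphorylate the IRS adaptors. Phosphorylated IRS proteins recruit PI3K, a dimer of a regulatory and a catalytic subunit, and the lipid that PI3K makes brings the kinase AKT to the membrane, where PDK1 and mTOR complex 2 activate it. Active AKT phosphorylates FOXO factors and keeps them out of the nucleus, and FOXO factors in turn can raise transcription of receptor and adaptor genes, a feedback loop that is well known in insulin-responsive tissues.

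With AS1842856 the RNA of the 9 genes moved in both directions. IRS1, IRS2 and PIK3R1 rose 2.47-, 2.05- and 2.11-fold. PIK3CB fell 3.26-fold, and INSR, IGF1R and RICTOR fell by smaller amounts of 1.72-, 1.31- and 1.18-fold. PIK3CA and PIK3IP1 did not pass the test. Thus 7 of the 9 genes passed an adjusted p of 0.05 in edgeR's quasi-likelihood test, which 56.0% of all genes tested did. Of these, 3 were higher with AS1842856, a direction called for 27.6% of all genes tested, and 4 were lower, against 28.4%. In 8 of the 9 genes no library of one group overlapped the other group, which held for 59.9% of all genes tested. The median log2 fold change of the 9 genes was -0.15, beside 0.003 for all genes, and their median absolute log2 fold change was 0.78, beside 0.26. These 9 genes and the pathway list below were chosen with earlier results of these data known. The comparisons with all genes are therefore only a description.

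**Figure D1:**
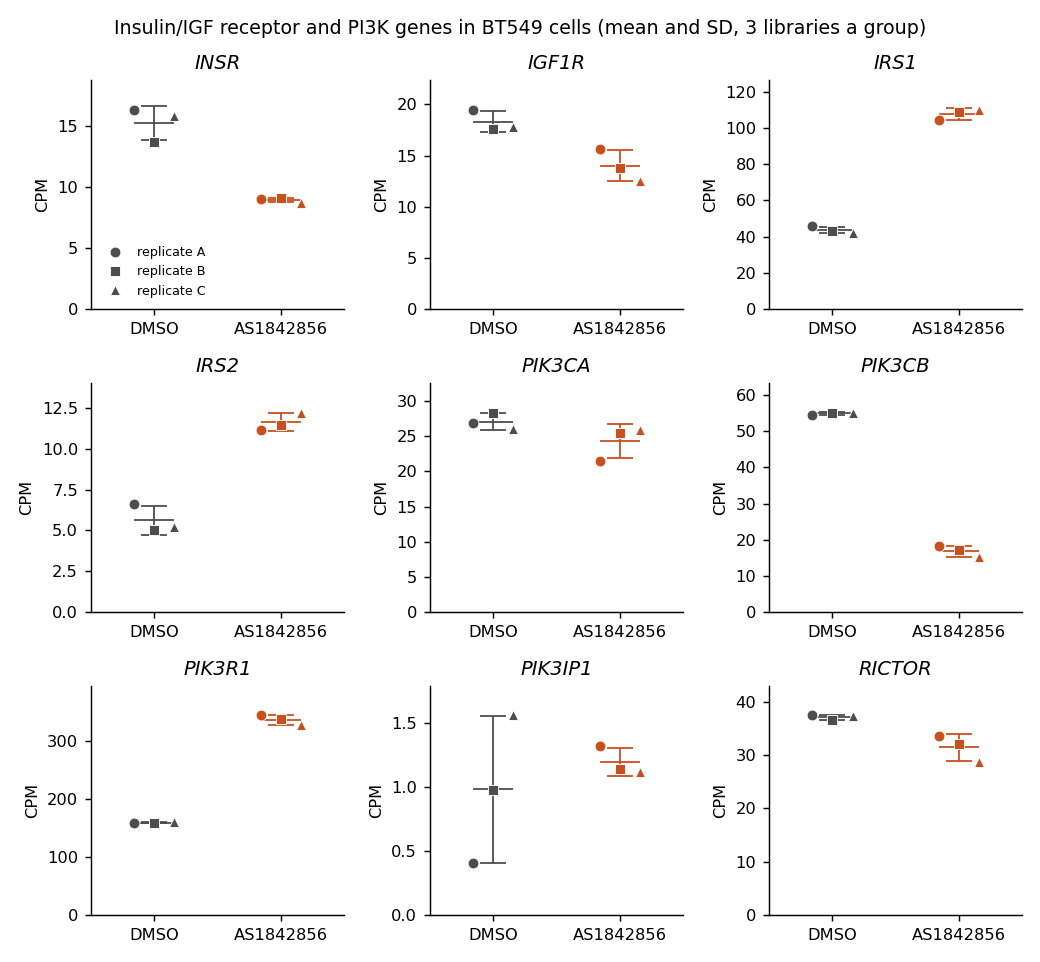
CPM, the counts of a gene scaled to library size, of each of the 9 genes in every library, with points for replicates A, B and C, a long bar for the mean and capped bars for the SD (n = 3 libraries a group). IRS1, IRS2 and PIK3R1 stand higher with AS1842856, PIK3CB, INSR, IGF1R and RICTOR stand lower, and only the PIK3IP1 groups overlap.

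The region just before the start site was read for each gene, because AS1842856 binds a forkhead factor. RefSeq (GRCh38.p14) gave 14 promoter windows for the 9 genes, each with 250 bases before and 50 bases after a start site. PIK3R1 had 4 windows, PIK3CB and PIK3IP1 had 2 each and the other genes had 1. Both strands were searched for TAAACA, the core of the forkhead consensus, and for CAAAACA, the core of the insulin response element. Neither string lies within the other. The 3 sequences below are the 250 bases before a start site, in the direction of transcription, with any match in capitals. IRS2 is shown as the window with the insulin response core, PIK3R1 as the window of a gene that rose and holds the forkhead core, and PIK3CB as the gene with the largest change.

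IRS2, chr13:109786584-109786833, minus strand: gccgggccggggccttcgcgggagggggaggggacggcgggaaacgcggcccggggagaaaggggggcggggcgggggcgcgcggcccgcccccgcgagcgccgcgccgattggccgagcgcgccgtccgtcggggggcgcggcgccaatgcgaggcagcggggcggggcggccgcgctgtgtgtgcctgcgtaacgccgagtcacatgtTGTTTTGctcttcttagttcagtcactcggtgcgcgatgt

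PIK3R1, the third of its start sites, chr5:68290414-68290663, plus strand: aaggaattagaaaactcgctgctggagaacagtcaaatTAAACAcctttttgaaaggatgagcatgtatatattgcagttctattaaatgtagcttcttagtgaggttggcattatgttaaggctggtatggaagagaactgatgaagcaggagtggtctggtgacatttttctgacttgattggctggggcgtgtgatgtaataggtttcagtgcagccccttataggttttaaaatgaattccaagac

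PIK3CB, the most upstream of its start sites, chr3:138834929-138835178, minus strand: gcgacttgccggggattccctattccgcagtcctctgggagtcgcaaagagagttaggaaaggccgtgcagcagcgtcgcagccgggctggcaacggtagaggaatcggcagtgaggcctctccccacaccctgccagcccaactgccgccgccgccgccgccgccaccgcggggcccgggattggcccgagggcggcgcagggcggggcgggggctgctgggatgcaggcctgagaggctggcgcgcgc

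In the IRS2 window the insulin response core lay on the opposite strand, written TGTTTTG above, 40 bases before the start site. This was the only one of the 14 windows with CAAAACA, a string found in 4.92% of 35116 RefSeq promoter windows of that length. TAAACA was found in 4 of the 14 windows, 1 each of IGF1R, PIK3CA, PIK3R1 and PIK3IP1, and in 12.3% of all promoter windows. The PIK3R1 match was 212 bases and the PIK3CA match 149 bases before the start site, and the IGF1R and PIK3IP1 matches were 45 and 17 bases after it. Genes with a forkhead core thus included PIK3R1, which rose, IGF1R, which fell, and PIK3CA and PIK3IP1, which did not pass the test. Neither window of PIK3CB held either string. The shown windows also differed in base composition, with 75.7% G and C over the 300 bases of IRS2, 74.0% in PIK3CB and 40.0% in PIK3R1, beside a median of 58.7% for all windows. A match is a string of letters and does not show that a factor binds there.

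The libraries were of similar depth. The DMSO libraries held 22050288, 15289500 and 18580205 counts in the order A, B and C, and the AS1842856 libraries held 16643243, 22981832 and 17888328. Values below are CPM, that is counts scaled to the library total with edgeR's TMM factors, and are given in that order. Markers of the line were read in the same libraries. VIM and ZEB1, genes of mesenchymal cells, stood at means of 1322 and 69.7 CPM with DMSO, and ESR1 and CDH1, of hormone-responsive and epithelial cells, had at most 1 count in any library. GATA3, a luminal marker, was placed among the genes expected to be low but stood at a mean of 50.9 CPM with DMSO. These markers also moved with AS1842856, in both directions. VIM fell to 1046 CPM, a log2 fold change of -0.34 (edgeR adjusted p = 2.84e-20), and EGFR and CDH2 fell by 0.55 and 0.19 on the log2 scale. ZEB1 rose to 98.5 CPM, a log2 fold change of 0.50 (edgeR adjusted p = 5.76e-20), and GATA3 rose by 0.28. The part of these shifts in the results below was not tested. CD3E, a T-cell gene, was at 0 counts in every library. PTPRC, a leukocyte gene, stood at 1.18, 1.56 and 0.70 CPM with DMSO and 2.64, 3.24 and 3.59 CPM with AS1842856, and its part in any result was not tested. A gene's share of the counts in these bulk samples cannot tell fewer cells of one kind from less RNA in each cell.

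INSR encodes the insulin receptor and IGF1R its paralog for IGF1 and IGF2. INSR (ENSG00000171105, chr19:7112255-7294034 on GRCh38) stood at 16.3, 13.7 and 15.8 CPM with DMSO and at 9.0, 9.07 and 8.69 CPM with AS1842856. All 3 treated libraries lay below every control library and close to each other. Its log2 fold change was -0.78 (SE 0.11, edgeR adjusted p = 1.29e-10), and 15.3% of genes tested had a larger absolute change.

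IGF1R (ENSG00000140443, chr15:98648539-98964530) stood at 19.5, 17.6 and 17.8 CPM with DMSO and 15.6, 13.8 and 12.6 CPM with AS1842856. Again the groups did not overlap, but the treated libraries were spread more widely and the gap between the groups was narrow. Its log2 fold change was -0.39 (SE 0.10, edgeR adjusted p = 0.000211), a size exceeded by 34.8% of genes tested, and it did not pass the test when limma was run on the deposited FPKM values. INSR fell further than IGF1R. The ratio of IGF1R to INSR counts was between 1.13 and 1.29 with DMSO and between 1.45 and 1.73 with AS1842856. It was 1.30-fold higher with AS1842856, with no overlap (exact permutation p = 0.1, two-sided, the smallest that 3 against 3 allows). The summed FPKM of the receptors, which is scaled by gene length, was 2.75 ± 0.195 with DMSO and 1.85 ± 0.125 with AS1842856 (SD, n = 3).

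IRS1 and IRS2 encode the main docking proteins of both receptors. IRS1 (ENSG00000169047, chr2:226731317-226799759) stood at 45.7, 43.0 and 42.2 CPM with DMSO and at 104, 109 and 110 CPM with AS1842856. The treated libraries were all far above the control libraries, and the spread within each group was small beside the gap. IRS1 rose with a log2 fold change of 1.30 (SE 0.05, edgeR adjusted p = 4.50e-69), the largest increase among the 9 genes, and 6.86% of genes tested had a larger absolute change.

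IRS2 (ENSG00000185950, chr13:109752698-109786568), whose upstream window held the insulin response core, had fewer counts. It stood at 6.60, 5.01 and 5.22 CPM with DMSO, from 145, 77 and 97 counts, and at 11.2, 11.5 and 12.2 CPM with AS1842856. All treated libraries were higher. IRS2 rose with a log2 fold change of 1.03 (SE 0.13, edgeR adjusted p = 5.02e-13), and 10.2% of genes tested had a larger absolute change. On the length-scaled FPKM values IRS1 made up 86.5% ± 1.31 of the summed IRS1 and IRS2 level with DMSO and 88.4% ± 0.275 with AS1842856 (SD, n = 3). The sum itself went from 5.04 ± 0.291 to 12.2 ± 0.352 FPKM, so the summed level was higher and was mostly IRS1 in both groups. The ratio of IRS2 to IRS1 counts changed by -0.24 on the log2 scale without overlap (exact permutation p = 0.1, two-sided), and by -0.16 without DMSO library A.

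PIK3CA and PIK3CB encode p110alpha and p110beta, the catalytic subunits that are expressed in most tissues. PIK3CA (ENSG00000121879, chr3:179148114-179240093) stood at 26.9, 28.4 and 26.0 CPM with DMSO and 21.5, 25.5 and 25.9 CPM with AS1842856. The groups did not overlap, but the highest treated library lay just under the lowest control. The log2 fold change of -0.15 (SE 0.08) did not pass the test (edgeR adjusted p = 0.0916), and it was -0.08 without AS1842856 library A (edgeR adjusted p = 0.471). KCNMB3, on the opposite strand, shares 35.8% of the exonic length of PIK3CA and had 7.56% as many counts, and the sources used here do not say whether counting used strand.

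PIK3CB (ENSG00000051382, chr3:138652699-138834938) showed the largest change of the 9 genes. It stood at 54.5, 55.1 and 55.0 CPM with DMSO and at 18.1, 17.3 and 15.1 CPM with AS1842856. The control libraries were nearly identical, and every treated library lay far below them. PIK3CB fell with a log2 fold change of -1.71 (SE 0.07, edgeR adjusted p = 1.61e-64), and 4.07% of genes tested had a larger absolute change. The ratio of PIK3CB to PIK3CA counts was 2.03, 1.94 and 2.11 with DMSO and 0.844, 0.677 and 0.584 with AS1842856, a log2 change of -1.55 with no overlap (exact permutation p = 0.1, two-sided). On the length-scaled FPKM values the ratio was 2.45, 2.35 and 2.55 with DMSO and 1.02, 0.819 and 0.706 with AS1842856, so PIK3CB was above PIK3CA in every control library, about level with it in treated library A and below it in B and C.

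PIK3CD, which encodes p110delta, the catalytic subunit best known from leukocytes, was brought in after its values were seen, as the other class I catalytic gene with counts. It stood at 21.9, 20.7 and 21.7 CPM with DMSO and at 35.1, 32.1 and 37.2 CPM with AS1842856, with all treated libraries higher. Its log2 fold change was 0.69 (SE 0.08, edgeR adjusted p = 2.74e-16). PTPRC, the leukocyte gene named above, was also higher with AS1842856 (log2 fold change 1.48, edgeR adjusted p = 4.99e-07), and its part in the PIK3CD value was not tested. On the FPKM scale, PIK3CB made up 52.8% ± 0.323 of the summed PIK3CA, PIK3CB and PIK3CD level with DMSO and 21.1% ± 2.45 with AS1842856 (SD, n = 3). PIK3CD went from 25.6% ± 0.843 to 53.9% ± 2.58 and PIK3CA from 21.6% ± 0.862 to 25.1% ± 2.40. The largest contributor was thus PIK3CB in every control library and PIK3CD in every treated library. CLSTN1, on the opposite strand, shares 89 exonic bases with PIK3CD and had 1632% as many counts, and PIK3CD-AS2, which shares none, had 14.8% as many, and their part in the PIK3CD value was not tested. The summed level was 13.1 ± 0.0377 FPKM with DMSO and 10.1 ± 0.281 FPKM with AS1842856.

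**Figure D2:**
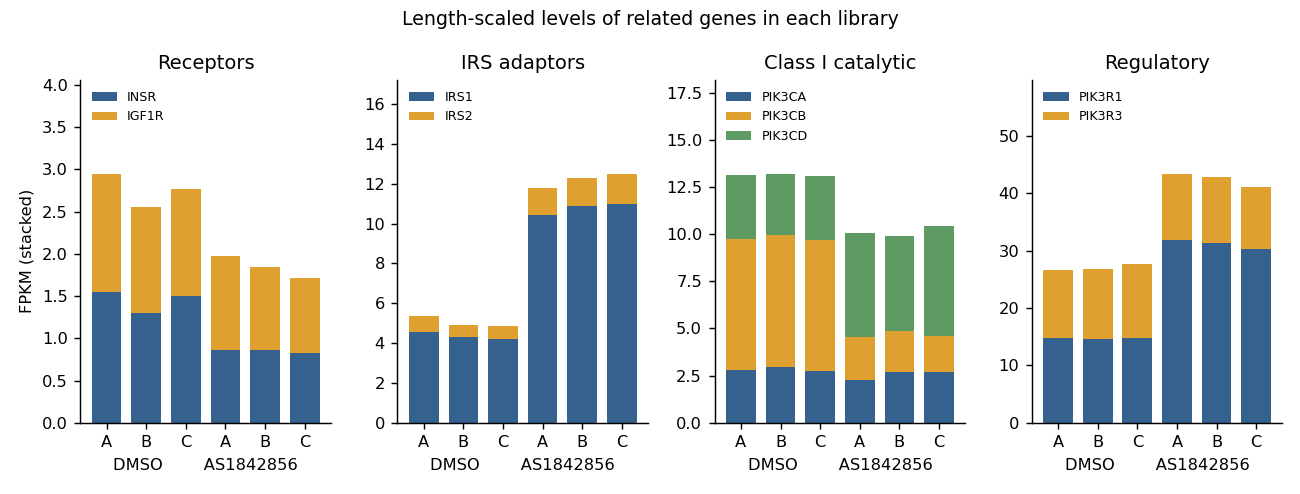
Stacked FPKM, a length-scaled level, of related genes in each of the 6 libraries, in panels for the receptors, IRS adaptors, class I catalytic subunits and regulatory subunits. The receptor and catalytic stacks are lower with AS1842856, the IRS and regulatory stacks are higher, and the largest catalytic segment is PIK3CB with DMSO and PIK3CD with AS1842856.

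PIK3R1 encodes p85alpha, the regulatory subunit that stabilizes the catalytic subunits and ties them to phosphorylated IRS proteins, and also the shorter forms p55alpha and p50alpha. PIK3R1 (ENSG00000145675, chr5:68215720-68301821) stood at 159.1, 159.1 and 160.5 CPM with DMSO and at 344.7, 338.5 and 327.7 CPM with AS1842856. The control libraries were nearly identical and the treated libraries were all higher. PIK3R1 rose with a log2 fold change of 1.08 (SE 0.04, edgeR adjusted p = 5.37e-79), and 9.49% of genes tested had a larger absolute change. The counts pool all forms of the gene, so which of its 4 RefSeq start sites was used was not tested.

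The ratio of PIK3R1 to PIK3CA counts went from a geometric mean of 5.89 to 13.9, with no overlap between groups (exact permutation p = 0.1, two-sided). PIK3R3, a gene for a further regulatory subunit, moved little, with a log2 fold change of -0.12 (SE 0.05, edgeR adjusted p = 0.021), and it did not pass the test without DMSO library C (-0.09) or AS1842856 library C (-0.10). PIK3R1 made up 54.6% ± 0.861 of the summed FPKM of PIK3R1 and PIK3R3 with DMSO and 73.4% ± 0.286 with AS1842856 (SD, n = 3). PIK3R2, the gene of p85beta, had between 1 and 5 counts a library. It shares 87.2% of its exonic length with the overlapping gene AC007192.1, which had 0 counts, so its level is uncertain.

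PIK3IP1 encodes a membrane protein that binds and inhibits the p110 subunits, and it is often counted among FOXO-induced genes. PIK3IP1 (ENSG00000100100, chr22:31281593-31292534) had only 9, 15 and 29 counts with DMSO and 22, 26 and 20 counts with AS1842856, or 0.41, 0.98 and 1.56 CPM against 1.32, 1.14 and 1.12 CPM. The treated libraries all lay within the range of the controls. The log2 fold change was 0.31 (SE 0.36, edgeR adjusted p = 0.496) and turned to -0.11 without DMSO library A. The spread among the control libraries was wider than the difference between the groups.

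RICTOR encodes the subunit that defines mTOR complex 2, the kinase of the hydrophobic-motif site of AKT. RICTOR (ENSG00000164327, chr5:38937919-39074408) stood at 37.5, 36.6 and 37.4 CPM with DMSO and 33.7, 32.1 and 28.7 CPM with AS1842856. The treated libraries were all lower, although the gap between the nearest libraries of the groups was narrower than the spread of the treated ones. RICTOR fell with a log2 fold change of -0.24 (SE 0.07, edgeR adjusted p = 0.00144), and 53.5% of genes tested had a larger absolute change. It did not pass with limma on log2(FPKM + 1) when no filter was used (adjusted p = 0.0812). OSMR, on the opposite strand, shares 229 exonic bases with RICTOR, had 577% as many counts and fell by 0.28 on the log2 scale (edgeR adjusted p = 1.24e-11). Its part in the RICTOR value was not tested.

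**Figure D3:**
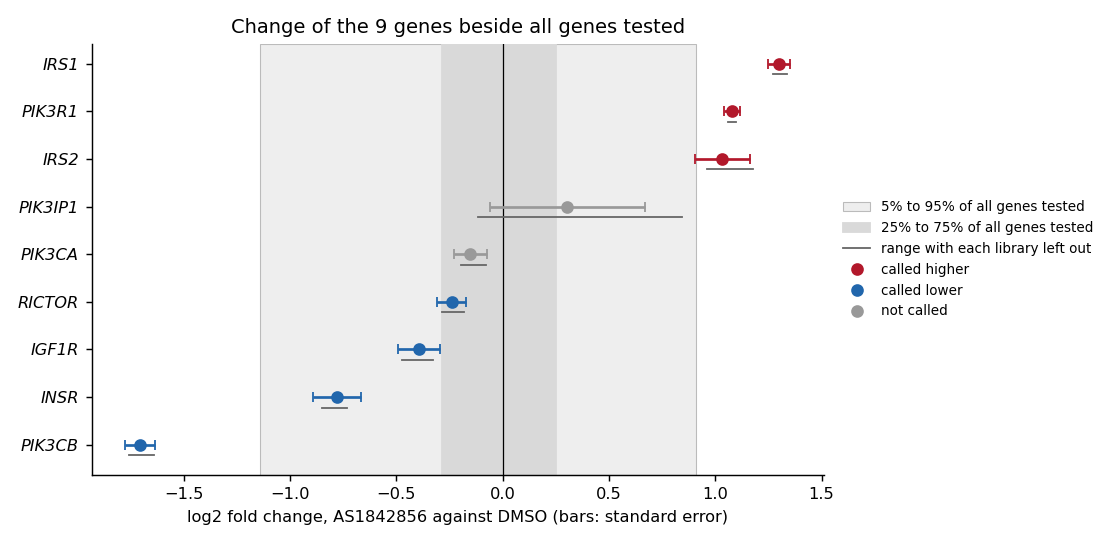
log2 fold change of the 9 genes, AS1842856 against DMSO, with bars for the standard error and a thin line for the range when each library was left out in turn. Shaded bands hold the middle of the 14338 genes tested, and IRS1, PIK3R1, IRS2 and PIK3CB lie outside the wider band, which runs from -1.14 to 0.91.

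Compared on the FPKM scale, the order of the 9 genes differed between the groups. With DMSO, PIK3R1 led at 14.7 FPKM, followed by PIK3CB at 6.95, IRS1 at 4.36, PIK3CA at 2.84, RICTOR at 2.72, INSR at 1.45, IGF1R at 1.30, IRS2 at 0.685 and PIK3IP1 at 0.257 FPKM. The ranges of PIK3CA and RICTOR overlapped, as did those of INSR and IGF1R, and the other neighbours in that order did not. With AS1842856, PIK3R1 led at 31.1 FPKM, followed by IRS1 at 10.8, PIK3CA at 2.54, RICTOR at 2.31, PIK3CB at 2.13, IRS2 at 1.42, IGF1R at 0.998, INSR at 0.848 and PIK3IP1 at 0.312 FPKM. The ranges of PIK3CA, RICTOR and PIK3CB all overlapped each other. PIK3CB thus moved from the rank below PIK3R1 to a level shared with PIK3CA and RICTOR, and IRS2 moved from below INSR and IGF1R to above both.

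**Figure D4:**
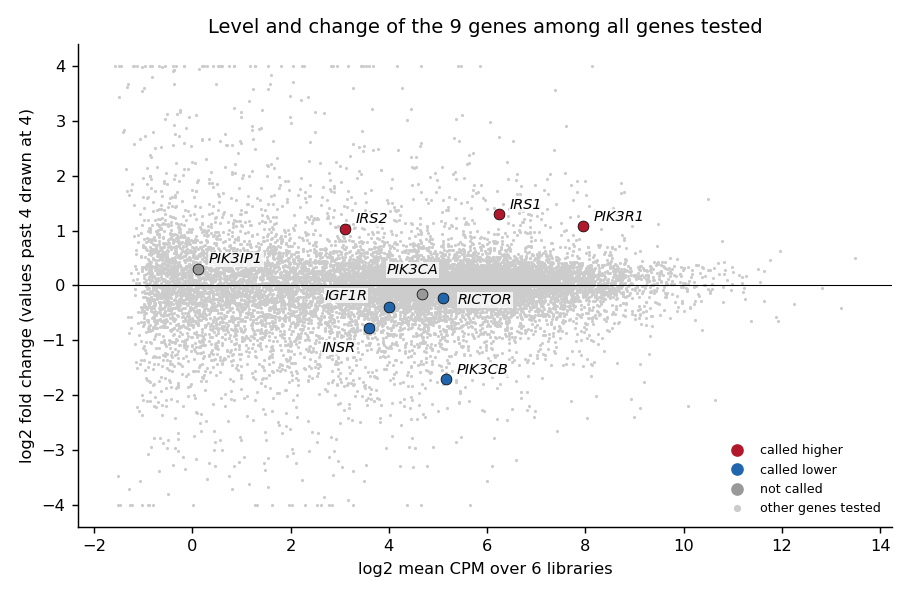
log2 fold change against log2 mean CPM over the 6 libraries, with grey dots for the other genes tested and values past 4 drawn at 4. The 9 genes run from PIK3IP1, the lowest of them, to PIK3R1, the highest of them. IRS1, PIK3R1, IRS2 and PIK3CB lie away from the dense band around 0.

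The genes whose pattern over the 6 libraries was most like IRS1 were TP53INP2, TNC and TPBG, with Pearson r of log2(CPM + 1) of 0.9998, 0.9997 and 0.9996. Those most like PIK3CB were RAVER2, SEMA3D and DAB2, with r of 0.9998, 0.9997 and 0.9995. These values are a description over 2 groups of libraries that differ in treatment. Of 13023 genes compared, 487 reached an r above 0.99 with IRS1 and 544 with PIK3CB.

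The other genes of the pathway were read from a list of 83 genes in 10 roles. Of these, 68 had enough counts to be tested. With AS1842856, 25 rose, 16 fell and 27 did not pass edgeR's test, so 60.3% were called, beside 56.0% of all genes. Their median log2 fold change was 0.05, beside 0.003. The shares called in each role below rest on 12 genes or fewer and are set beside the same 56.0%, with 27.6% higher and 28.4% lower, over all genes tested.

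**Figure D5:**
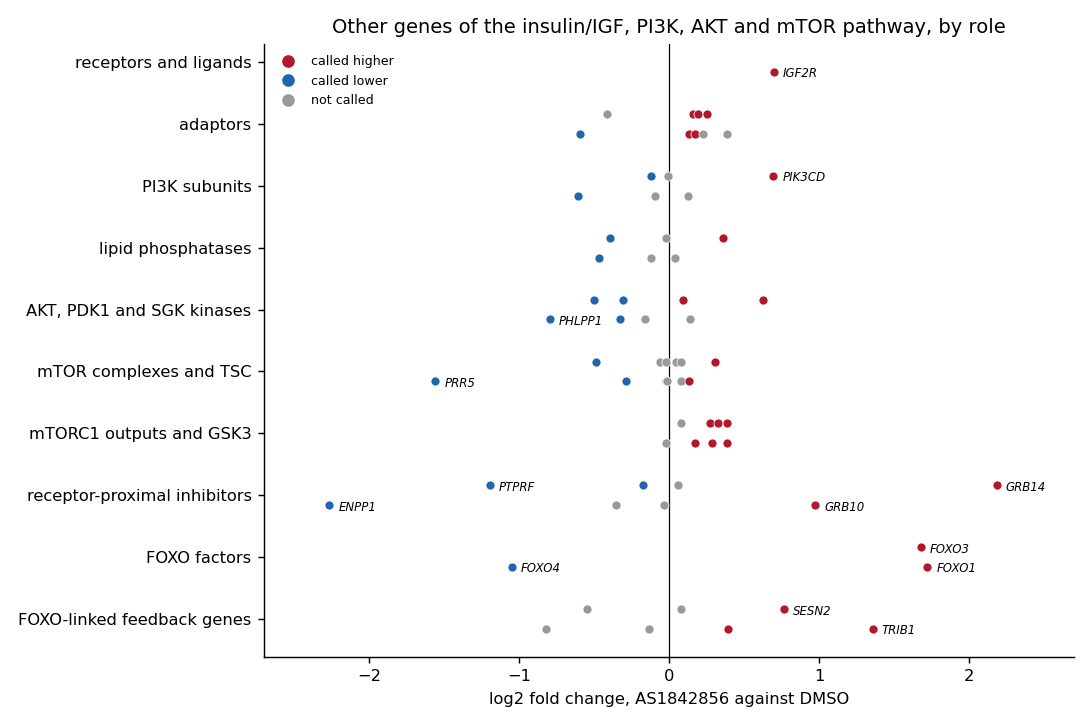
log2 fold change of the 68 tested genes of the pathway list, 1 point a gene, in rows by role. Receptor-proximal inhibitors and FOXO factors spread widest, from ENPP1 at -2.27 to GRB14 at 2.18, while the 12 genes of the mTOR complexes and TSC have a median of -0.02.

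Among ligands and other receptors, INS and IGF2 had 0 counts in every library and IGF1 had at most 1 count. The 2 annotated IGF2 genes overlap each other, INS shares 31.7% of its exonic length with INS-IGF2, and IGF1 shares 82.4% with HELLPAR on the opposite strand, which had 226 counts over the 6 libraries. Reads from these genes may therefore have gone uncounted or been assigned to the overlapping gene. IGF2R, the receptor that takes IGF2 to the lysosome, was called higher, from 236.6 ± 17.6 to 383.2 ± 11.6 CPM (SD, n = 3), with a log2 fold change of 0.70.

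Of 9 tested adaptors, 5 were called higher, 1 was called lower and 3 did not pass the test, so 66.7% were called. The exception was SHC1, which couples receptors to the RAS pathway and fell by 0.60 on the log2 scale, from 719.8 ± 5.25 to 476.0 ± 12.0 CPM (SD, n = 3). PTPN11, the phosphatase SHP2, and SOS1, the RAS exchange factor, were called higher by 0.25 and 0.19. RPL6, on the opposite strand, shares 111 exonic bases with PTPN11 and had 351% as many counts. PYGO2, on the same strand, shares 335 exonic bases with SHC1 and had 11.5% as many. The part of RPL6 and PYGO2 in the PTPN11 and SHC1 values was not tested. Among 6 other PI3K subunits tested, PIK3CD rose, PIK3C2B, a class II catalytic gene, fell by 0.61, PIK3R3 fell by 0.12 as given above and 3 did not pass, so 50% were called.

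The 8 receptor-proximal inhibitors held the largest changes of the list, with 2 called higher, 3 called lower and 3 that did not pass, or 62.5% called. ENPP1, a membrane protein that binds the insulin receptor and lowers its activity, stood at 187.8, 184.1 and 188.2 CPM with DMSO and at 36.8, 40.5 and 38.9 CPM with AS1842856. That is a 4.81-fold lower level in libraries that differed little within a group (log2 fold change -2.27, SE 0.05, edgeR adjusted p = 1.89e-124). GRB14, an adaptor that blocks the receptor's kinase, went the other way, from 0.59, 2.02 and 0.70 CPM to 5.16, 4.38 and 4.71 CPM, a 4.54-fold rise at a low level (log2 fold change 2.18, edgeR adjusted p = 7.91e-14). Without DMSO library B, the highest of the controls, its log2 fold change was 2.87. The other inhibitor called higher, GRB10, had more counts. It went from 62.9 ± 2.24 to 123.4 ± 0.850 CPM (SD, n = 3), a log2 fold change of 0.97. PTPRF, a receptor phosphatase, fell by 1.20 on the log2 scale.

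The 6 tested lipid phosphatases changed by at most 0.47 on the log2 scale in either direction, with 1 called higher, 2 called lower and 3 that did not pass, or 50% called. INPP5K and INPP5E, which remove a phosphate from the lipid that PI3K makes, fell by 0.47 and 0.39 on the log2 scale.

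The group of AKT, PDK1 and SGK kinases also holds the AKT phosphatases PHLPP1 and PHLPP2. Of its 8 tested genes, 2 were called higher and 4 lower, PHLPP1 among them, or 75% called. AKT1 was higher by 0.09 on the log2 scale (SE 0.04, edgeR adjusted p = 0.0291), a call that was lost without DMSO library B (0.07) or C (0.08) or AS1842856 library A (0.07) or B (0.09). AKT2 fell by 0.33. PHLPP1, a phosphatase of AKT, fell by 0.80, SGK1, an AKT-related kinase, fell by 0.50, and SGK3, a relative that binds endosomes, rose by 0.62. C8orf44, on the same strand, shares 391 exonic bases with SGK3 and had 33.3% as many counts, and its part was not tested.

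The 12 genes of the mTOR complexes and their TSC control held 2 called higher, 3 called lower and 7 that did not pass, or 41.7% called beside 56.0% of all genes. MTOR itself stood at 160.4 ± 8.15 CPM with DMSO and 158.5 ± 0.989 CPM with AS1842856 (SD, n = 3), a log2 fold change of -0.02 (SE 0.04, edgeR adjusted p = 0.72). PRR5, which binds RICTOR in mTOR complex 2, fell by 1.56 but had between 6 and 34 counts a library. RHEB, the small GTPase that switches on mTOR complex 1, fell by 0.49, and TSC1, part of the complex that switches RHEB off, rose by 0.30. Of the 8 genes of mTORC1 outputs and GSK3, 6 were called higher (75%, beside 27.6% of all genes) and 0 were called lower by edgeR or DESeq2, and 0 of the 8 were lower at an unadjusted p under 0.05. The median change on the log2 scale was 0.28, beside 0.003 for all genes. The genes called higher included EIF4EBP2, a translation repressor, at 0.39, GSK3A at 0.38 and the ribosomal protein gene RPS6 at 0.33. The other 2 of the 8 did not pass the test. These are RNA levels of genes named for the pathway, and the activity of mTOR complex 1 was not tested.

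The FOXO factors are the substrates of AKT at the end of the pathway, and FOXO1 is the named target of AS1842856. FOXO1 stood at 3.69, 4.88 and 4.09 CPM with DMSO and at 13.8, 13.5 and 14.0 CPM with AS1842856 (log2 fold change 1.72, SE 0.13, edgeR adjusted p = 4.16e-28). FOXO3 went from 47.5, 46.4 and 46.5 CPM to 150.1, 146.9 and 151.5 CPM, a log2 fold change of 1.67 (SE 0.05, edgeR adjusted p = 3.70e-96). Both thus rose by similar amounts in all treated libraries, while FOXO4 fell by 1.05 at a mean of 1.89 CPM with DMSO. Of 7 tested genes listed as linked to FOXO feedback, 3 were called higher and 4 did not pass, so 42.9% were called beside 56.0% of all genes. TRIB1 and TRIB2, pseudokinases, rose by 1.36 and 0.39, and SESN2, a stress-induced inhibitor of mTOR complex 1, rose by 0.76.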

How the data were processed

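RNA-Seq was measured in 6 BT549 libraries. The authors deposited raw counts per gene, not normalized, and FPKM values, which they scaled by gene length and library size. The study's methods name STAR, while the submitters' processing notes name Bowtie 0.12.2, CASAVA and GRCh38. The counting tool, annotation and strand setting are not given in the sources used here. Symbols and positions were taken from GENCODE 29 (Ensembl 94, GRCh38), which held all 58735 identifiers. Libraries held 15289500 to 22981832 counts.

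The test of the counts was edgeR 4.0.16 under R 4.3.3 (filterByExpr with minimum count 10 and total 15, TMM, glmQLFit with robust estimation, glmQLFTest without a block). Benjamini-Hochberg adjustment ran over all 14338 genes tested, with a threshold of 0.05. The SE given with a log2 fold change equals that change over the root of its F statistic. The common biological coefficient of variation was 0.0374. No library was a copy of another, as counts of replicates differed beyond sampling (chi-square per degree of freedom 2.32 to 3.12). The study's methods call the libraries biological replicates, the labels do not say how the cultures were separated, and p-values measure the spread between these libraries. Ratios of 4 pairs of genes were compared by exact permutation tests, and each p was 0.1 after adjustment over the 4. Alternatives used DESeq2 1.42.0, limma 3.58.1 on log2(FPKM + 1) and log2(FPKM + 0.1), other scalings and filters, a replicate block and each library left out. Scripts were tested on simulated data.

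Members and lists were chosen with earlier results of these data known, and shares of summed FPKM after values were seen. All 9 members were named. From each role of the pathway list, written from general knowledge, up to 3 genes with the largest absolute change among those called with a mean of at least 1 CPM were named, plus AKT1, AKT2, MTOR, FOXO1, FOXO3 and some further genes that are not reported here. INS, IGF1, IGF2 and PIK3R2 were added for their low counts, and GRB10 as the other receptor-proximal inhibitor called higher. Promoter sequences and start sites are from RefSeq (GRCh38.p14).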

Additional observations from a re-analysis of the deposited data

How the results depend on the processing

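Over 9 alternatives with all libraries, between 5 and 7 of the 9 genes passed the test, and 7 passed with each library left out. INSR, IRS1, IRS2, PIK3CB and PIK3R1 kept their direction and their call under every alternative. The pseudocount lowers the change of genes with low FPKM, and on log2(FPKM + 1) INSR was at -0.41, IRS2 at 0.52, FOXO1 at 0.93 and GRB14 at 0.94, with PIK3C2B at -0.33, PHLPP1 at -0.40 and SGK1 at -0.33. Without the filter PRR5 was at -0.24 and FOXO4 at -0.29. All of these were still called. IGF1R lost its call with limma on log2(FPKM + 1), at -0.21 (adjusted p = 0.0529) with genes of low FPKM removed and -0.21 (adjusted p = 0.0766) without that filter, and on log2(FPKM + 0.1), at -0.36 (adjusted p = 0.0518). RICTOR lost its call with limma on log2(FPKM + 1) without the filter, at -0.17 (adjusted p = 0.0812). The cause was not tested. With each library left out PIK3IP1 ranged from -0.11 to 0.84 and MTOR from -0.054 to 0.022, each changing sign without DMSO library A, and neither was called. PIK3IP1 was not tested under the stricter filters. AKT1 kept its call in only 4 of the 9 alternatives with all libraries, and PIK3R3 in 5 of the 9. Among the fits in which they lost it was DESeq2 (AKT1, DESeq2 adjusted p = 0.0505, PIK3R3, DESeq2 adjusted p = 0.0802).

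Same-letter libraries of the groups did not deviate together (r = 0.042, -0.012 and -0.0033 for A, B and C), so the letters do not establish pairs. With the letter as a replicate block, 7862 genes were called, beside 8029, and the same number of the 9 genes, 7. Genes called over the other alternatives numbered 6453 to 8030. The pathway list had 22 to 26 genes called higher and 12 to 16 called lower. PIK3IP1 had the fewest counts of the 9 genes, 9 to 29 a library. The reads carried no molecular identifiers, so counts may overstate the number of separate molecules, and duplicate reads were not measured here.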
